A study of Mus musculus with 7 samples.

Results

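The genes described here encode the proteins of the cytosolic ribosome, measured in sorted mouse Paneth cells after injury of the gut with dextran sulfate sodium (DSS). Members were the protein-coding genes whose symbol begins with Rpl or Rps, without symbols carrying -ps, Rps6k kinase genes, Rps27l and Rps19bp1. They numbered 84 of 52550 genes counted, 52 for the large subunit (Rpl) and 32 for the small subunit (Rps). Of the 84, 81 passed the filter on low counts, 49 of the large and 32 of the small subunit.

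The ribosome consists of a small subunit, which holds the mRNA and reads its codons, and a large subunit, which joins amino acids and lets the growing chain leave through an exit tunnel. In mammals most of the proteins are made from 1 expressed gene with many processed pseudogenes. Ribosomal protein mRNAs belong to the 5′TOP class, whose first base is a C followed by a run of pyrimidines and whose translation follows growth signals through the kinase mTORC1. Paneth cells sit at the bottom of the crypts of the small intestine, and they fill granules with lysozyme and alpha-defensins made on a dense rough endoplasmic reticulum.

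All 7 libraries measured polyadenylated RNA of Paneth cells from Lgr5-EGFP-IRES-CreERT2 mice on C57BL/6J, an allele that expresses EGFP and the tamoxifen-dependent CreERT2 recombinase from the Lgr5 locus and that both groups carried. The 4 DSS libraries came from mice aged 12, 10, 10 and 10 weeks (DSS 1 to 4) given 3% DSS in the drinking water over 7 days and sampled 3 days later. The 3 water libraries came from mice aged 12, 12 and 10 weeks (water 1 to 3) kept on normal water. Crypts of the small intestine were made into single cells, and live ones were gated on CD24 and side scatter after cells bearing TER119, CD31 or CD45 were gated out. Nothing in the labels says that each library was a separate animal, so the spread behind each p-value may be partly technical. Setting DSS against water asks how these cells respond to the injury.

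Total counts ran from 23179147 to 32451653 in DSS libraries and from 23175708 to 25894328 in water libraries. The 33 Paneth granule genes found in the files took 21.5% to 30.5% of all counts in DSS libraries and 32.8% to 34.7% in water libraries, so the sorted cells carried the defining markers of their label. Their summed level was 311627, 251214, 187835 and 193713 CPM in DSS 1 to 4, below the 359139 to 386247 CPM of the water libraries. CPM here are TMM-scaled: counts relative to the library total, adjusted by edgeR's TMM factors. Ptprc, the gene of CD45, lay at 7.86 to 16.8 CPM in DSS libraries and 8.10 to 13.5 CPM in water libraries, and the neutrophil gene S100a8 was at 0 counts in all 7. The labels date RNA isolation to November 9, 16, 16 and 24 for DSS 1 to 4 and to November 14, 14 and 21 for water 1 to 3. Each isolation day thus held samples of 1 group only, and day and group cannot be told apart.

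Nearly all cytosolic ribosomal protein mRNAs lay slightly higher after DSS, by about the same amount in both subunits, but no single member passed the test over all genes. The log2 change of DSS over water was above 0 in 48 of 49 large subunit and 32 of 32 small subunit members, against 49.7% of the 17449 genes tested. Its median was 0.29 in the large and 0.31 in the small subunit, with the central 50% of the 81 members between 0.26 and 0.37, while the median of all genes tested was -0.0015. In edgeR's quasi-likelihood test with Benjamini-Hochberg adjustment, 0 members had an adjusted p under 0.05 in either direction, as did 0.0% of all genes, and the smallest adjusted p of a member was 0.123. At an unadjusted p under 0.05, 72 members were higher (42 large, 30 small) and 0 lower, against backgrounds of 8.36% higher and 7.35% lower. In bulk libraries like these, a change in the mix of cells and a change in RNA per cell cannot be told apart.

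Some other fits drew the line elsewhere. Limma-voom with quality weights also called 0 members. So did edgeR with DESeq2 size factors, with scaling without granule genes and members, or with age as a covariate. The same held for a filter of at least 1 CPM in 4 libraries and for members summed with their -ps pseudogenes. DESeq2 called 45 members higher, 23 large and 22 small, and 0 lower, against 2.61% of genes called higher and 2.23% called lower. The edgeR test without a low-count filter called 22 members higher (12 large, 10 small; background 0.684%). With DSS 1 left out, edgeR called 23 higher (12 large, 11 small; background 0.905%). The members called by DESeq2, by edgeR without a filter and by edgeR without DSS 1 alike numbered 17. Among them were Rpl12, Rpl13, Rpl18, Rpl23a, Rpl28, Rpl29, Rpl36, Rplp1, Rplp2, Rps9, Rps10, Rps13, Rps18, Rps19, Rps26 and Rps28. Scaling by library totals in place of TMM gave 42 large and 29 small subunit members higher, with medians of 0.53 and 0.55. Under that scaling the median of all genes also moved to 0.23 and 12.1% of genes were called higher.

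**Figure D1:**
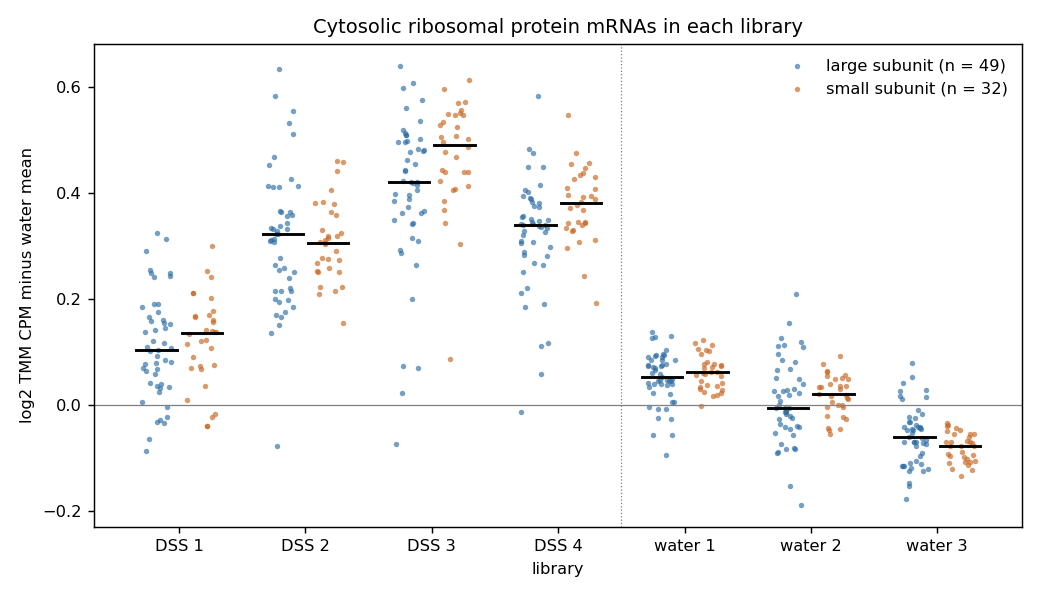
Level of each of the 81 tested members in each library, as log2 TMM CPM minus the mean of the water libraries; points are genes, black bars are medians by subunit. DSS 2, DSS 3 and DSS 4 lie above the water libraries for nearly every member, and DSS 1 lies between, with medians of 0.10 for the large and 0.14 for the small subunit.

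The DSS libraries differed among themselves in the same order for most members. Relative to the water mean, the median large subunit member lay at 0.10, 0.32, 0.42 and 0.34 on the log2 scale in DSS 1 to 4, and at 0.05, -0.01 and -0.06 in water 1 to 3. The median small subunit member lay at 0.14, 0.31, 0.49 and 0.38 in DSS 1 to 4, and at 0.06, 0.02 and -0.08 in water 1 to 3. DSS 1 was thus nearest to water. It was the lowest DSS library for 78 of 81 members (96.3%, against 24.7% of all genes), and DSS 3 was the highest for 69 (85.2%, against 25.6%). DSS 2, DSS 3 and DSS 4 all exceeded every water library in 78 of 81 members, against 12.1% of all genes. With DSS 1 included, the groups stood apart with DSS higher in 55 members (30 large, 25 small; background 7.4%), and with DSS lower in 0 members (background 7.51%). DSS 1 lay within or below the water range for 26 members (32.1%), against 75.5% of all genes.

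The median SD of log2 CPM over members was 0.145 among DSS libraries and 0.0833 among water libraries. For the 8101 other genes in the same range of mean CPM, these SDs were 0.108 in DSS and 0.0855 in water. The order of the DSS libraries by ribosomal protein level, DSS 1 lowest and then DSS 2, DSS 4 and DSS 3, was the reverse of their order by summed Paneth granule level. Of the 33 granule genes, 12 lay lower in all DSS than in all water libraries (background 7.51%). Scaling factors computed without granule genes and members gave the same medians, 0.29 in the large and 0.31 in the small subunit. This concerns the scaling alone, and the part of the granule genes in the ribosomal result was not tested.

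Values within subsets of the libraries kept the direction of the medians but not their size. Among the 10-week mice, DSS 2 to 4 against water 3, the median log2 change was 0.40 in the large and 0.45 in the small subunit. Among libraries marked lane 6, DSS 4 against water 1 to 3, it was 0.33 and 0.37. DSS 1 and DSS 3 were marked lane 8 and DSS 2 carried no single lane mark, so lane and group largely coincided. Among DSS 2, DSS 3 and water 3, whose titles share a number that the labels do not explain, the median log2 change was 0.40 and 0.46. Among the 12-week mice, DSS 1 against water 1 and 2, both medians were 0.08, with 14 of 81 members below 0 against 52.1% of all genes, and edgeR called 0 members in any of these 4 subsets. With age as a covariate over all 7 libraries the medians were 0.24 and 0.28.

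As a share of all counts, the members made up 1.67%, 2.05%, 2.44% and 2.25% in DSS 1 to 4, against 1.497%, 1.42% and 1.37% in water 1 to 3. Every DSS library lay above every water library, and the exact 95% binomial interval of each share was within 0.0060 points. The mean share was 2.10% ± 0.332 in DSS (SD, n = 4) and 1.43% ± 0.0640 in water (SD, n = 3). Counted over the reads outside the granule genes, the mean share was 2.79% ± 0.295 in DSS and 2.16% ± 0.0831 in water. Reads of the large subunit per read of the small subunit numbered 1.29, 1.31, 1.27 and 1.27 in DSS 1 to 4 and 1.30, 1.30 and 1.32 in water 1 to 3, so the balance between the subunits moved little beside the shares themselves.

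**Figure D2:**
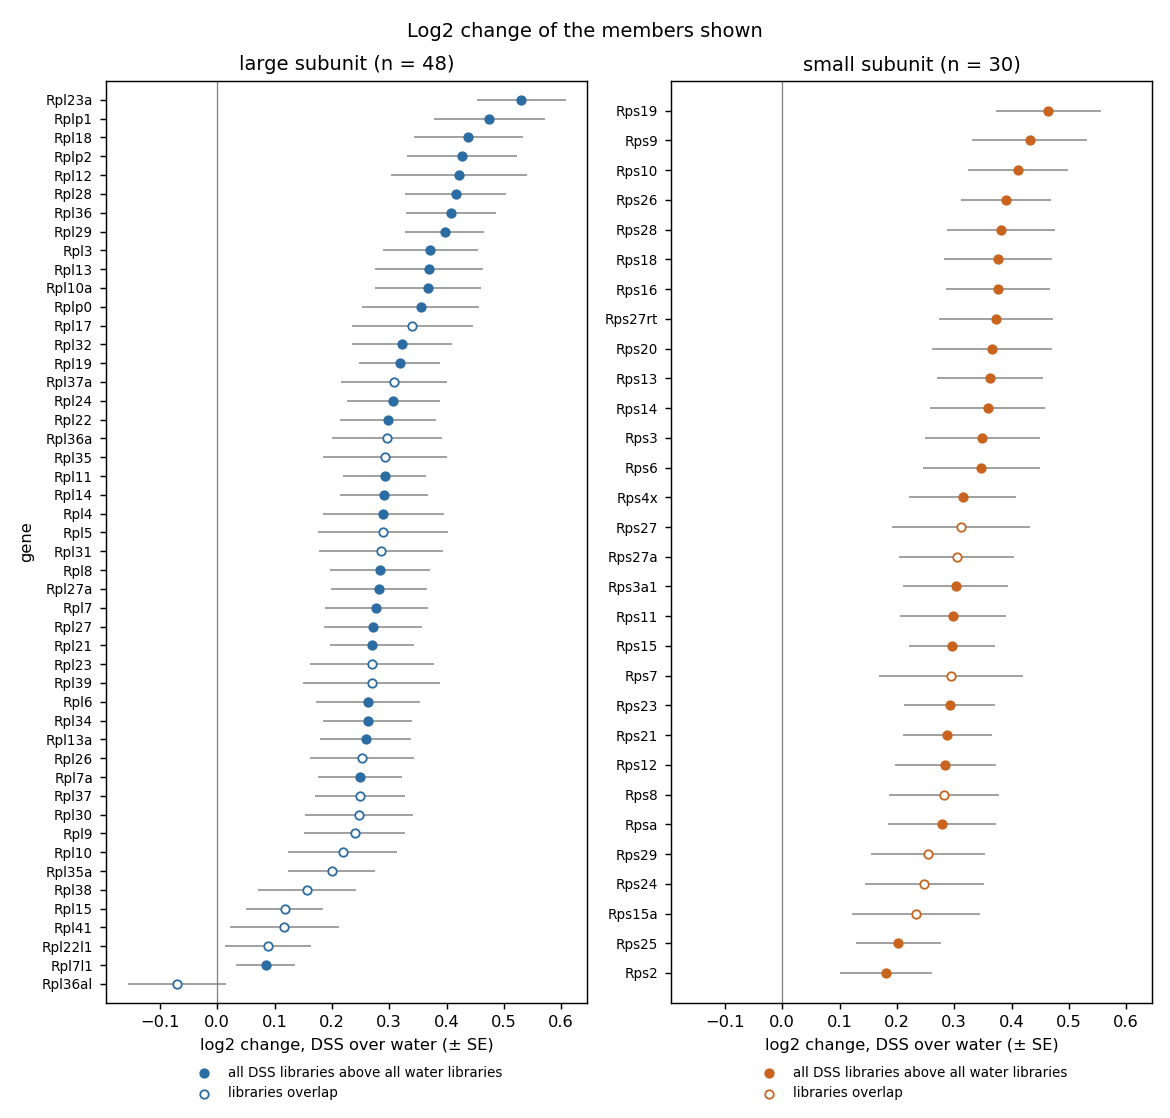
Log2 change of DSS over water with its standard error for 48 large and 30 small subunit members, in order of size; filled points mark members whose 4 DSS libraries all lie above the 3 water libraries. All but Rpl36al lie above 0, Rpl23a leads the large subunit at 0.53 and Rps19 the small subunit at 0.46.

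Rpl23a, a protein beside the mouth of the exit tunnel (chr11:78180932-78183584, mm10, minus strand), had the largest change of all members. Its level was 57.1, 68.3, 69.5 and 68.3 CPM in DSS 1 to 4, against 44.8, 45.8 and 46.1 CPM in water 1 to 3. The groups did not overlap, DSS 1 was the lowest DSS library, and the log2 change was 0.53 ± 0.08 (SE, adjusted p = 0.123 in edgeR and 2.2e-05 in DESeq2). Rpl29, a small protein found in eukaryotic large subunits, measured 100.1, 113, 116 and 115 CPM in DSS 1 to 4, against 86.8, 85.9 and 80.3 CPM in water 1 to 3. Its DSS libraries also all lay above the water libraries, with a log2 change of 0.40 ± 0.07 and the same adjusted p of 0.123 in edgeR. Among the 8 smallest p-values of the large subunit were also those of Rpl36 (0.41 ± 0.08), Rplp1, Rpl28 (0.42 ± 0.09), Rpl18 (0.44 ± 0.10) and Rpl3 (0.37 ± 0.08), each with an adjusted p of 0.138 in edgeR and with groups that did not overlap. Rpl3 lies near the centre where peptide bonds are made, and Rpl28 is a large subunit protein that budding yeast lacks.

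The stalk proteins, which draw elongation factors to the ribosome, were among the members with larger changes. Rplp1 had 347, 431, 444 and 410.1 CPM in DSS 1 to 4, against 312, 291 and 278 CPM in water 1 to 3, a log2 change of 0.47 ± 0.10. Rplp2, its partner in the stalk dimer, had 170, 216, 210.3 and 207 CPM in DSS 1 to 4, against 156, 154 and 137 CPM in water 1 to 3, a change of 0.43 ± 0.10. Both genes were lowest among DSS libraries in DSS 1 and did not overlap between groups. Rplp0, which anchors the stalk to the large subunit, had a change of 0.36 ± 0.10 with an adjusted p of 0.177 in edgeR.

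Rpl5 and Rpl11 ride with the 5S ribosomal RNA into the large subunit and, when free, bind the p53 regulator Mdm2. Rpl11 measured 164, 185, 187 and 186 CPM in DSS 1 to 4, against 157, 145 and 141 CPM in water 1 to 3. DSS 1 stood apart below the other DSS libraries but still above water, and the log2 change was 0.29 ± 0.07 (adjusted p = 0.149). Rpl5 measured 263, 283, 357 and 325 CPM in DSS 1 to 4, against 274, 237 and 243 CPM in water 1 to 3. Its groups overlapped through DSS 1 and water 1, and its change was 0.29 ± 0.11 (adjusted p = 0.268).

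Among proteins that line the exit tunnel, Rpl4 had a log2 change of 0.29 ± 0.11, Rpl17 of 0.34 ± 0.11 and Rpl39 of 0.27 ± 0.12, with adjusted p of 0.245, 0.197 and 0.320 in edgeR. Rpl4 was the most abundant member by CPM, at 927, 1032, 1203 and 1114 CPM in DSS 1 to 4 and 922, 870.1 and 832 CPM in water 1 to 3. Its DSS 1 level was barely above that of water 1. For Rpl17 and Rpl39 the groups overlapped.

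In the small subunit, Rps19 had the largest change. Rps19 helps to mature the small subunit's ribosomal RNA, and in humans its mutation causes Diamond-Blackfan anaemia (mouse gene at chr7:24884371-24889806, mm10, plus strand). It measured 148, 157, 184 and 176 CPM in DSS 1 to 4, against 131, 117 and 114 CPM in water 1 to 3, a log2 change of 0.46 ± 0.09 (adjusted p = 0.138). Rps26, which lies at the exit of the mRNA channel, measured 209.6, 233, 250.004 and 230.1 CPM in DSS 1 to 4, against 189, 170.1 and 169 CPM in water 1 to 3, a change of 0.39 ± 0.08. Neither gene overlapped between groups, and in both DSS 3 was highest and DSS 1 lowest. The 8 smallest p-values of the small subunit also included those of Rps10 (0.41 ± 0.09), Rps9 (0.43 ± 0.10), Rps16 (0.38 ± 0.09) and Rps28 (0.38 ± 0.09). Rps28 sits near the mRNA exit side and Rps9 near the entry side. The adjusted p of the 8 ran from 0.138 to 0.146 in edgeR, and all 8 separated the groups.

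Other small subunit members touch the mRNA path or the decoding centre. Rps3, at the mRNA entry, had a log2 change of 0.35 ± 0.10, and Rps23, in the decoding centre, of 0.29 ± 0.08. Rps2, which with Rps3 forms the entry, measured 324, 363, 312 and 336 CPM in DSS 1 to 4, against 304, 308 and 273 CPM in water 1 to 3. For Rps2 the highest library was DSS 2 and the lowest DSS library was DSS 3, and the change of 0.18 ± 0.08 was the smallest in the small subunit (adjusted p = 0.321). Rps6, the protein phosphorylated by S6 kinases below mTORC1, had a change of 0.35 ± 0.10. Rps27a, made as a fusion with ubiquitin, had 0.30 ± 0.10, Rps4x 0.31 ± 0.09, and Rpsa, also known as the laminin receptor, 0.28 ± 0.09.

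Few members stayed near 0. Rpl36al, a copy of Rpl36a with 2 exons (chr12:69182731-69184083, mm10, minus strand), was the only one of the 81 with a log2 change below 0. It measured 37.7, 38.0, 38.1 and 39.7 CPM in DSS 1 to 4, against 38.5, 46.4 and 36.0 CPM in water 1 to 3, a change of -0.07 ± 0.09 (adjusted p = 0.747). The groups overlapped and water 2 alone was high: without water 2 the change was 0.04, and with library totals in place of TMM it was 0.17. Rpl36a itself, on the X chromosome, had a change of 0.30 ± 0.10. Because the copies are similar and primary alignments of reads with several matches were counted, reads can be split between them.

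Other gene copies are set beside their partners. Rpl22l1, the copy of Rpl22, measured 39.2, 45.1, 40.8 and 45.6 CPM in DSS 1 to 4, against 41.4, 37.7 and 41.3 CPM in water 1 to 3, a log2 change of 0.09 ± 0.07, while Rpl22 had 0.30 ± 0.08. Rpl7l1, a relative of Rpl7, had 0.08 ± 0.05, while Rpl7 had 0.28 ± 0.09. Rps27rt, a copy of Rps27 in 1 exon, had 0.37 ± 0.10 and Rps27 had 0.31 ± 0.12, and their reads can be split in the same way. The difference within each of these pairs was not tested. Rpl41, the shortest ribosomal protein, measured 250, 316, 268 and 276 CPM in DSS 1 to 4, against 254, 277 and 236 CPM in water 1 to 3. Its groups overlapped, DSS 2 was the highest library, and the change was 0.12 ± 0.10.

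**Figure D3:**
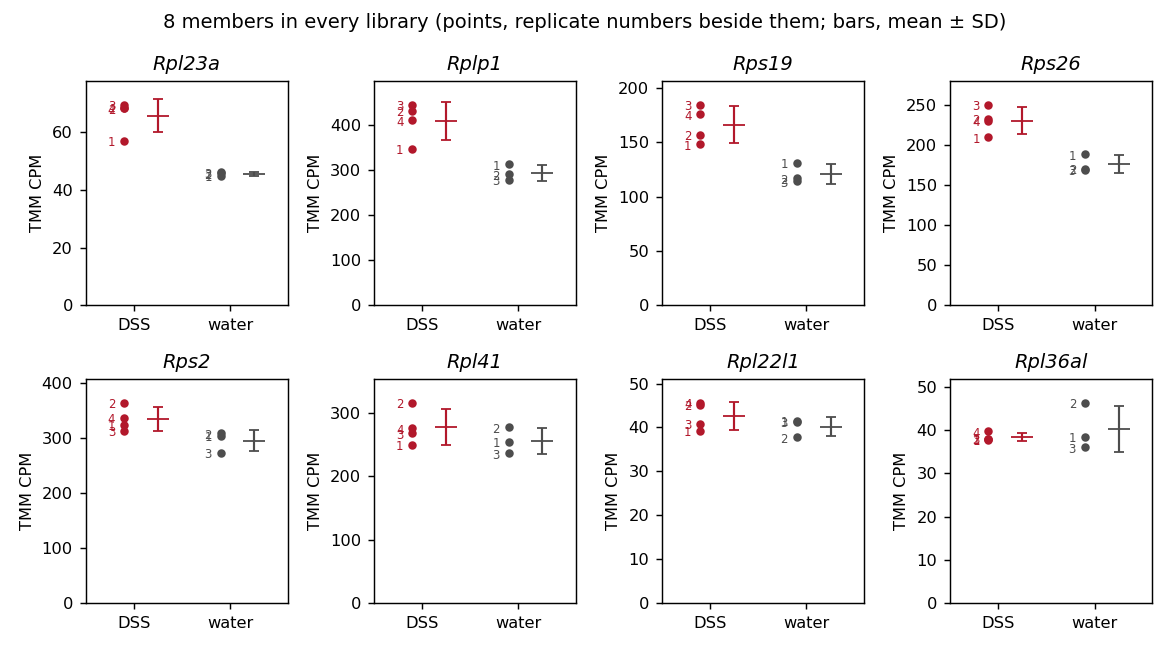
Level in TMM CPM of 8 members in every library (points with their replicate numbers) with mean ± SD per group (n = 4 DSS, n = 3 water). In Rpl23a, Rplp1, Rps19, Rps26 and Rps2 every DSS library lies above every water library, while in Rpl41, Rpl22l1 and Rpl36al the groups overlap.

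The copies known for other tissues were nearly unread. Rpl3l, which replaces Rpl3 in striated muscle, had 0, 0, 0 and 2 counts in DSS 1 to 4 and 0, 1 and 1 in water 1 to 3. Rpl10l, a testis copy of Rpl10, had 1 count in DSS 2 and 1 in water 3, and Rpl39l, known from testis, had 0 counts in all 7 libraries. A count of 3 corresponds to 0.0884 to 0.132 CPM in DSS and 0.126 to 0.144 CPM in water libraries, so levels below that are not detectable at this depth. Rpl10 lay at 351, 415, 451 and 442 CPM in DSS 1 to 4 and at 366, 353 and 351 CPM in water 1 to 3, a log2 change of 0.22 ± 0.10, with DSS 1 at the water level. These 3 copies did not pass the filter and enter no count or median above.

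**Figure D4:**
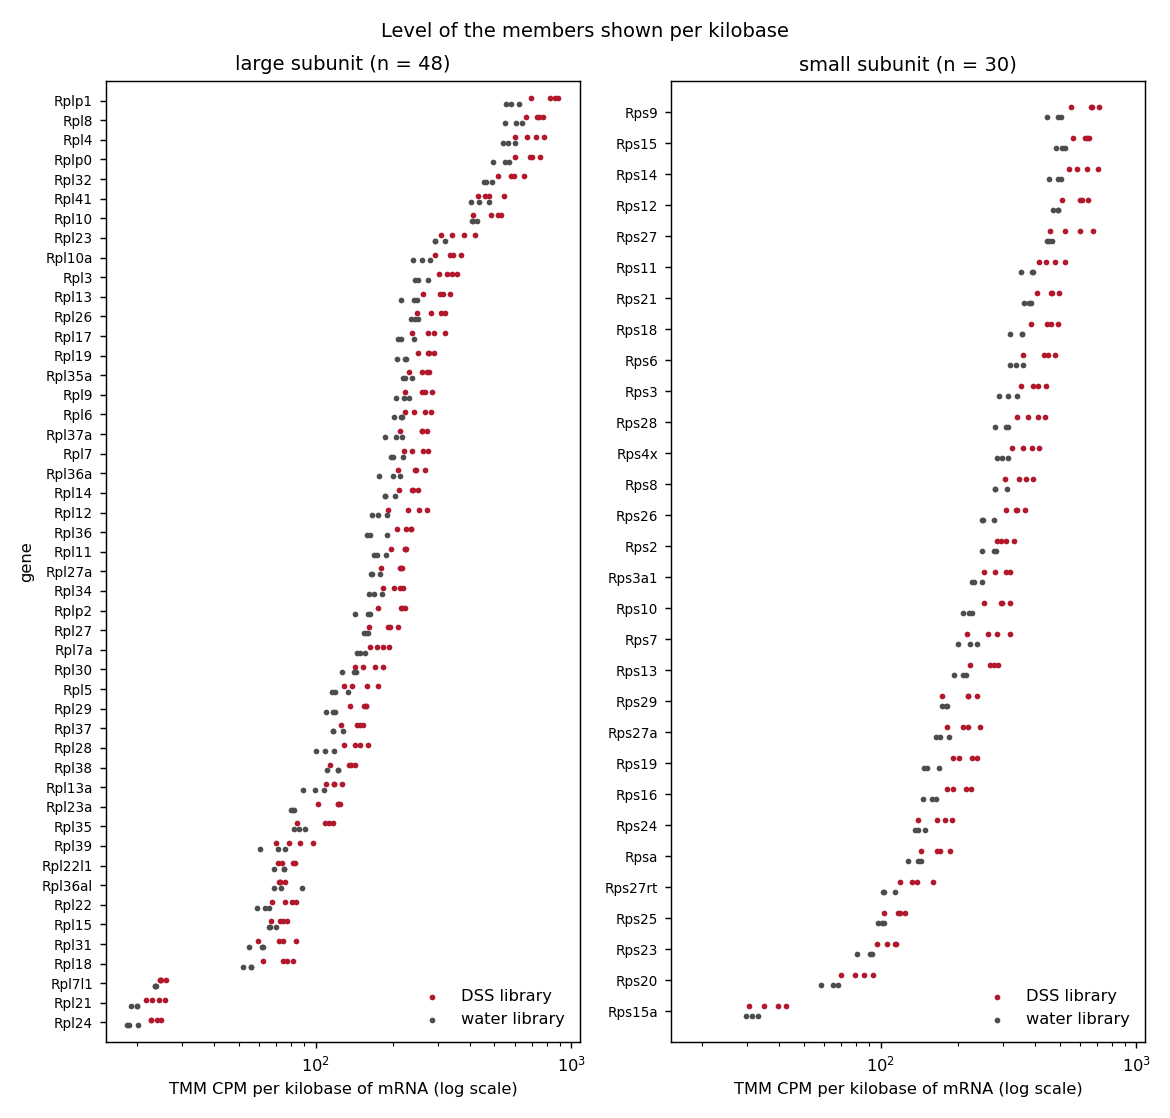
Level of 48 large and 30 small subunit members per kilobase of the principal mRNA, in TMM CPM per kilobase on a log axis, with 1 point per library. The large subunit runs from Rpl24 at 21.6 to Rplp1 at 720 and the small subunit from Rps15a at 34.5 to Rps9 at 578, and the DSS points lie a little to the right of the water points along most of that range.

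Between genes, levels spread far more than between groups. As TMM CPM per kilobase of the principal mRNA, averaged over the 7 libraries, the large subunit ran from 21.6 to 720 with a median of 191, and the small subunit from 34.5 to 578 with a median of 279. The highest large subunit levels per kilobase were those of Rplp1 (818 in DSS, 588 in water), Rpl8 (730.1 in DSS, 600 in water) and Rpl4 (695 in DSS, 569 in water). The lowest were those of Rpl24 (23.5 in DSS, 19.0 in water), Rpl21 (23.7 in DSS, 19.6 in water) and Rpl7l1 (24.9 in DSS, 23.5 in water). In the small subunit Rps9 (650.1 in DSS, 482 in water), Rps15 (622 in DSS, 506 in water) and Rps14 (620.0 in DSS, 484 in water) led, and Rps15a, Rps20 and Rps23 came last at 36.8, 82.1 and 108 in DSS and 31.4, 63.7 and 88.0 in water. The mRNA model chosen for Rps15a was 5179 bases long and that of Rps20 3706 bases, against 345 bases for Rps27, so their low values rest on long models. Reads lost to processed pseudogenes also lower such levels. With the counts of matching -ps pseudogenes added to 60 members, the median log2 changes were 0.29 for the large and 0.31 for the small subunit, and 34 and 24 members separated the groups (7.23% of all genes).

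The letters at the annotated starts of the promoters varied among members. RefSeq's table for GRCm38.p6 held a promoter for 64 of the 84 members. Each line gives 20 bases before and 20 from the annotated start, with the C at the start and the pyrimidines that run on from it in capitals where at least 4 pyrimidines follow. Rps10 and Rplp2 are members with a large change and a pyrimidine start, Rpl15 has the longest such run beside a small change, Rps27 and Rps27rt are copies, and Rps19, Rpl22l1 and Rpl36al lack the run at the annotated start.
Rps10 (chr17:27635225-27635264, minus strand): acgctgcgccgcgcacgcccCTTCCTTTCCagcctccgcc
Rplp2 (chr7:141447631-141447670, plus strand): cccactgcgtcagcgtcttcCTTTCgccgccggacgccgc
Rpl15 (chr14:18270967-18271006, minus strand): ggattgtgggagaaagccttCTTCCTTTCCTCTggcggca
Rps27 (chr3:90213629-90213668, minus strand): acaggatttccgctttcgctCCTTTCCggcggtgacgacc
Rps27rt (chr9:114982720-114982759, minus strand): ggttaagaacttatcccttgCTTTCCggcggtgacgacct
Rps19 (chr7:24884572-24884611, plus strand): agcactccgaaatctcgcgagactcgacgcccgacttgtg
Rpl22l1 (chr3:28805488-28805527, plus strand): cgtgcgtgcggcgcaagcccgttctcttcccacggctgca
Rpl36al (chr12:69184048-69184087, minus strand): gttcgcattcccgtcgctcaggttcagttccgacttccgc

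A C followed by 4 pyrimidines stood at an annotated start of 14 of 64 matched members (21.9%), 813 of 27025 genes (3.01%) and 0 of 69 mitochondrial ribosomal protein genes. Annotated starts can differ from those used in the cell by some bases, so no run at this position says only that the letters are not there. The median log2 change was 0.30 in the 14 members with the run (from 0.12 in Rpl15 to 0.43 in Rplp2), 0.29 in the 47 tested members without it and 0.33 in the 20 without a promoter entry. In the 300 bases around the start, searched on both strands, CCGGAAG, a core of sites for ETS factors such as Gabpa, occurred in 39.1% of members against 9.93% of genes. It was as frequent in mitochondrial ribosomal protein genes, at 37.7%. AAGATGG, a core of Yy1 sites, occurred in 15.6% of members and 7.28% of genes, GGGCGG in 60.9% and 38.2%, CACGTG in 9.38% and 8.09%, and the TATA box letters TATAAA in 10.9% and 15.7%. In mitochondrial ribosomal protein genes, AAGATGG occurred in 18.8%, GGGCGG in 49.3%, CACGTG in 7.25% and TATAAA in 7.25%. These matches are descriptions of the letters and not measured sites.

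Base composition moved weakly with the change. Over the 81 members, the GC content of the mRNA and the log2 change had a Spearman correlation across genes of 0.27, against 0.25 over 13094 protein-coding genes, where genes are not independent replicates and share the same libraries. Members above the median GC content had a median change of 0.34 and those below of 0.29. GC content was also correlated with each library's log2 level relative to the water mean. These correlations were 0.37, 0.44, 0.07 and 0.17 in DSS 1 to 4 and -0.33, 0.47 and -0.33 in water 1 to 3. Water levels taken relative to their own mean balance out, so opposite signs among the water libraries are partly built in. The part of GC content in the result was not tested.

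**Figure D5:**
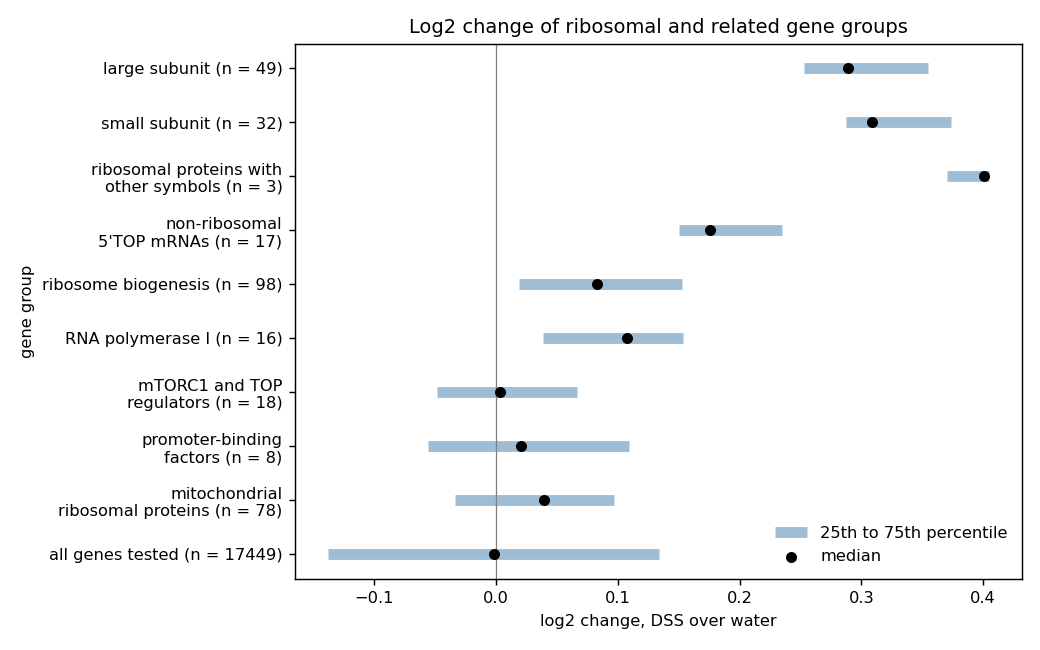
Median log2 change of DSS over water (points) and the range from the 25th to the 75th percentile (bars) for each gene group among the genes tested. Both subunits and the ribosomal proteins with other symbols lie near 0.3 to 0.4, non-ribosomal 5′TOP mRNAs at 0.18, and mitochondrial ribosomal proteins and mTORC1 regulators near 0.

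Cytosolic ribosomal proteins whose symbols do not begin with Rpl or Rps had values like those of the members. Fau, which encodes a ubiquitin-like protein fused to a small subunit protein, measured 169, 207, 223 and 202 CPM in DSS 1 to 4, against 152, 158 and 142 CPM in water 1 to 3, a log2 change of 0.41 ± 0.10. Rack1, a scaffold on the head of the small subunit, had 0.34 ± 0.11. Both separated the groups and were called by DESeq2, and neither passed in edgeR (adjusted p of 0.139 and 0.199).

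Among 17 other mRNAs of the 5′TOP class, most of them for translation factors, the median log2 change was 0.18. At an unadjusted p under 0.05, 7 were higher (background 8.36%) and 0 lower (background 7.35%), and DESeq2 called 3 higher (background 2.61%). The smallest p-values belonged to the initiation factor subunits Eif3f (0.36 ± 0.09) and Eif3h (0.27 ± 0.08) and the elongation factors Eef1b2 (0.38 ± 0.11) and Eef2 (0.33 ± 0.11). Of 98 ribosome biogenesis factors, 7 were higher and 1 lower at that threshold, with a median of 0.08. The smallest p-values were those of Nop53 (0.28 ± 0.07), Nhp2 (0.27 ± 0.07), Rrs1 (0.27 ± 0.09) and Nop2 (0.27 ± 0.09), which process or modify ribosomal RNA or assemble the large subunit. The largest change among the higher genes was that of Rrp1b (0.39 ± 0.13), and DESeq2 called 1 of the 98 higher (background 2.61%). The share of these factors higher at the unadjusted threshold was close to the 8.36% of all genes. Their log2 change was above 0 in 78 of 98, against 49.7% of all genes tested.

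The machinery of RNA polymerase I, which makes the large ribosomal RNA precursor, had a median log2 change of 0.11 over 16 genes. At the unadjusted threshold 0 were higher (background 8.36%) and 0 lower (background 7.35%). Its smallest p-values belonged to the subunit genes Cd3eap (0.32 ± 0.15), Polr1c (0.15 ± 0.07), Polr1b (0.19 ± 0.09) and Polr1a (0.17 ± 0.09). Of 18 genes for mTORC1 and regulators of 5′TOP translation, the median was 0.00345, with 0 higher and 1 lower at the unadjusted threshold (same backgrounds). The lower gene was Rheb, the GTPase that activates mTORC1, at 57.3, 61.3, 56.0 and 52.7 CPM in DSS 1 to 4 against 70.1, 71.6 and 65.6 CPM in water 1 to 3. Its log2 change was -0.28 ± 0.07, DESeq2 called it, and its adjusted p in edgeR was 0.139. Mlst8, a subunit of mTORC1, had 0.14 ± 0.07, the S6 kinase gene Rps6kb1 -0.09 ± 0.06 and the translation repressor Eif4ebp1 -0.41 ± 0.32.

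Of 8 transcription factors with known sites at ribosomal protein promoters, Myc and Zbtb7a were higher at the unadjusted threshold (background 8.36%) and were called by DESeq2 (background 2.61%). Myc, which drives growth genes, measured 78.8, 82.3, 80.1 and 92.8 CPM in DSS 1 to 4, against 71.7, 67.6 and 58.0 CPM in water 1 to 3, a log2 change of 0.35 ± 0.09 (adjusted p = 0.157 in edgeR). Zbtb7a had 0.28 ± 0.08, while Gabpa and its partner Gabpb1 had -0.13 ± 0.08 and -0.18 ± 0.09. Among DSS libraries Myc was lowest in DSS 1, like most members, and highest in DSS 4, while most members were highest in DSS 3. The part of these factors in the ribosomal result was not tested.

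Mitochondrial ribosomal protein genes, which encode a separate ribosome inside mitochondria, lay closer to 0. Over 78 genes their median log2 change was 0.04. At the unadjusted threshold 2 were higher (background 8.36%) and 0 lower (background 7.35%). The groups stood apart with DSS higher in 4 (background 7.4%), and DESeq2 called 0 (backgrounds 2.61% higher and 2.23% lower). Their share of all counts was 0.182% ± 0.0128 in DSS (SD, n = 4) and 0.151% ± 0.0054 in water (SD, n = 3), and outside the granule genes 0.243% ± 0.0066 in DSS and 0.228% ± 0.0050 in water. The difference between the mitochondrial and the cytosolic genes was not tested.

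No marker sum of other crypt cells had the full order of the ribosomal proteins over the DSS libraries. Tuft, enteroendocrine and enterocyte sums were highest in DSS 3, like most members, and stem, cycling and goblet sums were not. The 10 tuft cell markers summed to 596, 1121, 1131 and 568 CPM in DSS 1 to 4 and 597 to 668 CPM in water libraries, and the 10 enteroendocrine markers to 552 to 1313 CPM in DSS and 68.9 to 2768 CPM in water libraries. Stem cell markers, 10 genes, summed to 4369 to 5342 CPM in DSS and 4463 to 5339 CPM in water libraries, with 2 higher in all DSS libraries (background 7.4%). Cycling cell markers, 10 genes, summed to 629 to 823 CPM in DSS and 755 to 958 CPM in water libraries, with 2 lower in all DSS libraries (background 7.51%). Goblet markers (8 genes) ran from 5360 to 10054 CPM in DSS and from 6136 to 7565 CPM in water, and enterocyte markers (10 genes) from 934 to 1060.0 CPM in DSS and from 954 to 1041 CPM in water. Leaving out Lyz2, a granule gene, and Cd74, the other 10 immune markers summed to 10.8 to 20.3 CPM in DSS and 10.3 to 16.3 CPM in water. Cd74 measured 17.3, 166, 154 and 205 CPM in DSS 1 to 4 and 71.7, 195 and 67.7 CPM in water 1 to 3. The 10 endothelial, stromal and red cell markers summed to at most 3.50 CPM. The part of these cells in the ribosomal result was not tested.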

How the data were processed

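The authors deposited raw counts per gene, 1 table per library, which per the file headers came from featureCounts 1.5.3: exons summed by gene of GENCODE release 15, over primary alignments with at least a fraction of 0.8 overlapping, without a strand setting. Reads of overlapping or antisense genes are thus not separated. STAR 2.5.3a, featureCounts 1.5.2, DESeq2 and mm10 are named in the submitters' processing notes. GENCODE release 21 gave symbols and biotypes for 52403 of the 52550 genes by identifier.

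From these counts, edgeR 4.0.16 in R 4.3.3 kept 17449 genes (filterByExpr), scaled them by TMM and compared DSS with water by the quasi-likelihood test with Benjamini-Hochberg adjustment at 0.05 over all genes. Standard errors came from the F statistic of the fit. DESeq2 1.42.0, limma 3.58.1 with voom and quality weights, other scalings and filters, age, subsets and leaving out each replicate were alternatives. The subset of 12-week mice was chosen after seeing the data. The main edgeR steps, but not the alternatives, were tested on simulated counts. Any 2 libraries differed by more than sampling noise (lowest ratio of chi-square to degrees of freedom 14.6). Replicates were numbered in accession order and pair nothing. Lane marks were read from the names of the deposited tables.

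Named members were the 8 with the smallest p in each subunit, any below 0, the 3 highest and 3 lowest per kilobase in each subunit, those not tested, and members fixed by role. From other lists up to 4 genes with the smallest p were named. The other members named, Rpl36a, Rpl12, Rpl13, Rpl15, Rps13 and Rps18, were chosen after their values were seen, as was Rrp1b. Members and lists were chosen with earlier results of these data known. Promoters came from RefSeq (GRCm38.p6). Mitochondrial ribosomal protein genes were described as a group. Intervals cover counting error only. Some genes that the rule names are not reported here.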

Additional observations from a re-analysis of the deposited data

Results flagged for a closer look

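In 5 of 85 measures looked at (the levels of the named members and of the named genes of other lists, with medians, shares and marker sums), 1 of the 4 DSS libraries lay far from the others, with a gap to its nearest neighbour above Dixon's critical fraction of the group's range; chance alone flags about 5% of such groups. DSS 1 was the library apart, below the rest, for Rpl11 (ratio 0.935), Rpl23a (0.909) and Rpl29 (0.850). In Rpl23a it measured 57.1 CPM against 68.3 to 69.5 CPM in DSS 2 to 4, and in Rpl29 100.1 CPM against 113 to 116 CPM. DSS 4 was apart for Rpl36al (0.836), where it was high at 39.7 CPM against 37.7 to 38.1 CPM, and for Nop53 (0.880), where it was low at 106 CPM against 115 to 116 CPM.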

How the results depend on the processing

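The medians of both subunits stayed above 0 under every alternative run, and no alternative called a member lower. Library totals in place of TMM gave 42 large and 29 small subunit members higher, medians of 0.53 and 0.55, and 2107 genes higher and 28 lower in all. DESeq2 called 23 and 22 members higher (347 genes higher, 297 lower), and edgeR without a filter 12 and 10 (240 higher, 201 lower). In 10-week mice the medians were 0.40 and 0.45 and 48 large subunit members separated the groups (28.8% of all genes). Libraries sharing a title number gave 48 such members (35.6% of all genes), a small subunit median of 0.46, and 4 genes higher and 10 lower; lane 6 libraries gave 47 (28.0%), with 3 genes higher and 6 lower. In 12-week mice the medians were 0.0798 and 0.0791 and 2 genes were higher.

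Leaving out each replicate gave 0 to 12 large and 0 to 11 small subunit members higher, with calls only without DSS 1, and 0 lower. Then 30 to 46 large and 25 to 32 small subunit members separated the groups (8.66% to 13.1% of all genes), the medians ran from 0.24 to 0.34 and from 0.27 to 0.38, and the difference in share from 0.311 to 0.453 and from 0.249 to 0.365 percentage points. Genes called ran from 0 to 158 higher and 0 to 126 lower, both highest without DSS 1, with 9 higher without DSS 4. Where 1 library was left in a group, it was assumed to vary like the other group's. Rpl36al turned positive with library totals (0.17), in 10-week mice (0.099), in libraries sharing a title number (0.0759) and without water 2, ranging from -0.14 to 0.0416 over the libraries left out. Of the named members, in 12-week mice Rpl10 (-0.0409), Rpl22l1 (-0.0204), Rpl41 (-0.0951), Rps15a (-0.0855) and Rps27 (-0.0137) turned negative. The cause of these shifts was not tested. No paired analysis was possible because the replicate numbers follow accession order. Depth limits only Rpl3l, Rpl10l and Rpl39l.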
